A study of Mus musculus with 4 samples.

Results

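A set of 7 genes that carry small nucleolar RNAs (snoRNAs) in their introns and lie outside the Dlk1-Gtl2 locus were followed through single haematopoietic stem cells (HSC) of mouse bone marrow. They are Gas5, Snhg1, Snhg3, Snhg5, Snhg6, Snhg8 and Snhg12, chosen by name, and make up 7 of the 24411 gene rows in the count tables. All 7 had counts in all 4 libraries. The study's title names snoRNAs of the imprinted Dlk1-Gtl2 locus and links them to rRNA modification, translation and the upkeep of long-term stem cells. The question here was at what level snoRNA hosts elsewhere in the genome were present, and whether they differed with genotype as ribosomal protein genes did. The groups were Mat KO (2 libraries, 44 and 48 cells) and WT (2 libraries, 48 cells each). The labels give mouse HSC from bone marrow, sorted by flow cytometry, for both groups, and name no treatment. They do not give the age, sex or strain of the mice, the part of the locus removed in Mat KO, or how many animals stand behind a library, so a p-value here speaks only of the scatter among these 4 libraries, part of which may be technical.

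Most snoRNAs of mammals are cut from the introns of longer host transcripts after splicing. Box C/D snoRNAs guide ribose methylation of ribosomal RNA with the methylase fibrillarin, and box H/ACA snoRNAs guide pseudouridylation with the pseudouridine synthase dyskerin. Many hosts code for ribosomal proteins or translation factors, while the 7 genes here are noncoding: their introns hold the snoRNAs, and the spliced exons have no long reading frame. Gas5 and several Snhg transcripts begin with a short run of pyrimidines, as the mRNAs of ribosomal proteins do (the 5′ terminal oligopyrimidine, or TOP, type), and their spliced RNA is known to be broken down by nonsense-mediated decay when it is translated. Gas5 was named for its accumulation in growth-arrested cells.

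The genes differ in how many snoRNAs they hold. In the GENCODE M21 annotation of GRCm38 (mm10), Gas5 (chr1:161034422-161038539, plus strand) spans 9 annotated snoRNAs and Snhg1 (chr19:8723475-8726443, plus strand) spans 8. Snhg12 (chr4:132308623-132311024, plus strand) spans 4. Snhg3 (chr4:132348014-132353686, minus strand) and Snhg5 (chr9:88521050-88522929, minus strand) span 2 each. Snhg6 (chr1:9941959-9944118, minus strand) and Snhg8 (chr3:123507552-123508404, minus strand) span 1 each. All 27 of these snoRNAs lie in an intron of at least 1 host transcript, and 25 also overlap an exon of another annotated transcript of the host. The 3 sequences that follow stand for both classes of cargo. Capitals mark the C box (ATGATGA or GTGATGA) near the 5′ end and the last D box (CTGA) in Snord47 and Snord87, and the ACA box near the 3′ end in Snora24, all read from the annotation's transcripts 5′ to 3′.
Snord47, in Gas5 (chr1:161038082-161038158, plus strand): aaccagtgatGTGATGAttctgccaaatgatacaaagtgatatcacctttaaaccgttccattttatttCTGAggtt
Snord87, in Snhg6 (chr1:9942463-9942549, minus strand): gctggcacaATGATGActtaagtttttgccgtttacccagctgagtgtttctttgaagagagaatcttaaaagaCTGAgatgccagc
Snora24, in Snhg8 (chr3:123507937-123508066, minus strand): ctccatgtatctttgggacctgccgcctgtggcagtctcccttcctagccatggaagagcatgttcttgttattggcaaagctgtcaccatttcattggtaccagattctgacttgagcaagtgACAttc

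Mature snoRNAs carry no poly(A) tail, and the libraries were primed with oligo-dT, so the counts speak of the host transcripts and not of the snoRNAs. Of the 27 snoRNAs, 8 have a row of their own in the tables, and their summed unique molecular identifiers (UMIs) came to 23 and 7 in the Mat KO libraries (replicate 1, then 2, here and throughout) and to 24 and 67 in the WT libraries. Snord47 had 3 and 3 UMIs in Mat KO libraries against 7 and 33 in WT libraries, and Snora24 had 0 in every library, where 3 counts would be 0.922 to 1.70 CPM (UMIs scaled to 1000000 gene UMIs of the library). At these counts no difference between genotypes was detectable, and reads of an unspliced host cannot be told apart from reads of the snoRNA inside it.

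The starts of the hosts were set beside those of ribosomal protein genes. The RefSeq promoter table (GRCm38.p6) holds starts for 6 of the 7 members, with 2 for Gas5. Each host window gives 45 bases before the annotated first base and 50 bases from it, on the gene's strand. Capitals mark TATA, where it begins 40 to 20 bases before the first base, and a run of at least 5 C or T that begins with C within 10 bases of the first base. The ranges do not overlap, and only the gene's own strand was searched. Rps18, whose RNA varied most like that of Gas5 between cells (below), is set beside them with 18 bases from its first base.
Gas5, start 1 (chr1:161034556-161034650, plus strand): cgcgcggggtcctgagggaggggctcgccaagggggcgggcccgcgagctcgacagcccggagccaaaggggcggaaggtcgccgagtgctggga
Gas5, start 2 (chr1:161035121-161035215, plus strand): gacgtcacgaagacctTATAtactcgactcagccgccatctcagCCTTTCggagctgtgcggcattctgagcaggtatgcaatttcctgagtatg
Snhg1 (chr19:8723442-8723536, plus strand): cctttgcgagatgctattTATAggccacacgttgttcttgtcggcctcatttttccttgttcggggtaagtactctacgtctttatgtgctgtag
Snhg3 (chr4:132353637-132353731, minus strand): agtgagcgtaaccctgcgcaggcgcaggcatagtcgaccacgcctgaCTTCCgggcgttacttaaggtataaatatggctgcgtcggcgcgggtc
Snhg5 (chr9:88522848-88522942, minus strand): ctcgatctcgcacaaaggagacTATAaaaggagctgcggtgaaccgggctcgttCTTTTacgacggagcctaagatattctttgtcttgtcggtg
Snhg8 (chr3:123508287-123508381, minus strand): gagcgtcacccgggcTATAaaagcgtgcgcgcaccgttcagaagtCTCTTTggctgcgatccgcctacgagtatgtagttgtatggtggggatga
Snhg12 (chr4:132308633-132308727, plus strand): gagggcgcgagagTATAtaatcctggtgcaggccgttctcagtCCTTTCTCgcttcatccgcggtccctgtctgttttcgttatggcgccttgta
Rps18 (chr17:33955648-33955710, minus strand): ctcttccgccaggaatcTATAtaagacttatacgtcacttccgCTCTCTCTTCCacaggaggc

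A pyrimidine run stood at 5 of the 7 host starts (71.4%), at 54.4% of the 68 windows of ribosomal protein genes and at 30.7% of all 32851 windows of the table. TATA stood at 5 of the 7 host starts as well (71.4%), against 8.82% of ribosomal protein windows and 5.81% of all windows. Both stood together at 4 host starts (57.1%): the second start of Gas5, Snhg5, Snhg8 and Snhg12. The shares over ribosomal protein windows and all windows for both together were 7.35% and 1.86%. Rps18 has both and so does not stand for most ribosomal protein starts. Runs of the hosts were 5 to 8 pyrimidines long, and that of Rps18 was 11 long. These matches are letters in a window and were not tested as binding or start sites.

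Counts in this assay are UMIs near the 3′ end of a poly(A) RNA and carry no length term, so levels of different genes are set side by side in CPM. The kept cells, those with at least 1000 detected genes, held totals of 1900319 and 1768647 UMIs per Mat KO library and 3183279 and 3253608 per WT library. All 15 long-term HSC markers (among them Procr, Mecom and Hlf) were detected in every library. Cells with markers of other blood lineages were present too: 18 and 7 in Mat KO libraries and 7 and 8 in WT libraries, with 49.96%, 28.7%, 16.9% and 21.1% of the UMIs in that order. Granulocyte and monocyte markers took 3.40% of the UMIs in Mat KO replicate 1 and 0.356% to 0.700% in the others, while B lymphoid markers took 0.0723% to 0.158%. The T cell marker Cd3e and the adult haemoglobin genes Hba-a1, Hba-a2, Hbb-bs and Hbb-bt were at 0 in every library. Other markers of their lists were seen. Of 9 T and NK markers, 7 and 3 were detected in Mat KO libraries and 3 and 5 in WT libraries. Of 11 erythroid markers, 6 and 3 were detected in Mat KO libraries and 4 and 7 in WT libraries. WT replicate 2 held 2 cells set aside as erythroid, and Mat KO replicate 1 held 1 with T and NK markers. The remaining cells are called lineage-low cells (26 and 41 in Mat KO, 41 and 40 in WT libraries). Fold changes of the 7 hosts and of ribosomal proteins, and the ratio of their UMIs, are given below with and without the other-lineage cells. So is the correlation of Gas5 with ribosomal proteins. Detection, the nearest genes and the further gene lists are given only with those cells included. The barcodes have the same names in all 4 libraries, and 44 of them hold a kept cell in each.

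Gas5 was by far the most abundant of the 7. It reached 1434 and 1632 CPM in Mat KO libraries and 2015 and 1861 CPM in WT libraries, from 2726, 2886, 6414 and 6056 UMIs in that order. At its WT mean of 1938 CPM ± 109 (SD, n = 2) it stood at percentile 99.7 of all gene rows. It alone gave 59.2% to 68.1% of the UMIs of the 7 genes in a library. Both WT libraries were above both Mat KO libraries.

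Snhg8, which holds Snora24, came next. It had 298 and 239 CPM in Mat KO libraries against 391 and 329 CPM in WT libraries. Snhg1, the host of 8 snoRNAs on chromosome 19, had 205 and 163 CPM in Mat KO libraries and 225 and 215 CPM in WT libraries. Snhg6, which holds Snord87, had 110 and 119 CPM in Mat KO libraries and 134 and 195 CPM in WT libraries. For these 3 genes too the WT libraries lay above the Mat KO libraries without overlap.

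The other 3 genes lay close together and overlapped between genotypes. Snhg3 had 125 and 44.7 CPM in Mat KO libraries and 126 and 117 CPM in WT libraries, with Mat KO replicate 2 lowest. Of the 237 Snhg3 UMIs in Mat KO replicate 1, 47 came from 1 cell with T and NK markers, and in lineage-low cells both Mat KO libraries (63.1 and 19.8 CPM) lay below both WT libraries (82.8 and 90.7 CPM). Snhg5 had 97.4 and 105 CPM in Mat KO, between the WT values of 88.3 and 124 CPM. Snhg12, a neighbour of Snhg3 on chromosome 4, had 152 and 93.9 CPM in Mat KO libraries and 74.8 and 115 CPM in WT libraries. It was the only one of the 7 with a higher mean in Mat KO, a direction that turned with spike-in scaling (log2 fold change -0.12).

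**Figure D1:**
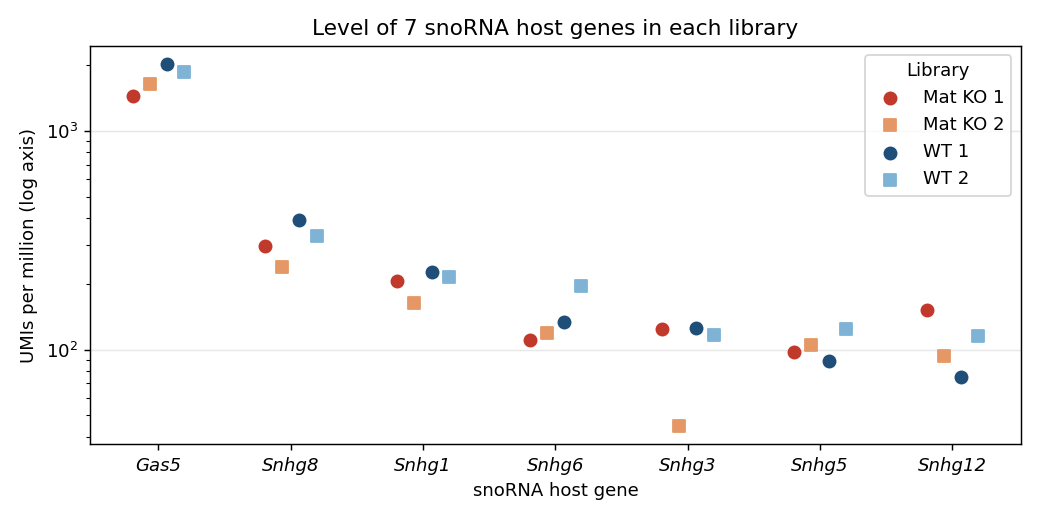
Level of each host gene (CPM, log axis) in the 2 Mat KO libraries (red and orange) and the 2 WT libraries (dark and light blue); each point is 1 library, summed over its kept cells. Gas5 lies between 1434 and 2015 CPM, above every value of the other 6 genes, and Snhg3 is lowest in Mat KO replicate 2 (44.7 CPM).

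By WT mean the order was Gas5, Snhg8, Snhg1, Snhg6, Snhg3, Snhg5 and Snhg12. Gas5 over Snhg8, Snhg8 over Snhg1 and Snhg1 over Snhg6 held within all 4 libraries. The first pair of neighbours whose ranges over the 4 libraries overlapped was Snhg1 and Snhg6. Snhg6 exceeded Snhg3 in 3 of 4 libraries, Snhg3 exceeded Snhg5 in 2 of 4, and Snhg5 exceeded Snhg12 in 3 of 4. In the WT libraries the ranges of Snhg3 and Snhg5 overlapped, as did those of Snhg5 and Snhg12.

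No host gene passed the test of genotype. In edgeR's quasi-likelihood test over 10663 genes, with Benjamini-Hochberg adjustment, 0 of 7 members had an adjusted p under 0.05, against 0.0750% of all genes tested (8 genes). All 8 were higher in Mat KO. Among them were markers of other lineages: Lyz1 and Ly6c2 (granulocyte and monocyte, edgeR adjusted p = 0.00349 each) and Ccl5 (T and NK, adjusted p = 0.0301). None of the 7 had an unadjusted p under 0.05 either, and DESeq2 called 0 of them. Log2 fold changes, Mat KO minus WT, were -0.31 for Gas5 (SE 0.18, adjusted p = 0.729), -0.39 for Snhg8 (SE 0.26, adjusted p = 0.762) and -0.49 for Snhg6 (SE 0.33, adjusted p = 0.767). Snhg1 had -0.23 (SE 0.28), Snhg3 -0.49 (SE 0.45), Snhg5 -0.04 (SE 0.35) and Snhg12 0.40 (SE 0.38), with adjusted p from 0.844 to 0.990. With 2 libraries a side these standard errors leave differences of the size measured undetectable.

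As a description, 6 of the 7 had a fitted value below 0, against 50.6% of all genes tested. Every Mat KO library lay below every WT library for 4 of the 7 (Gas5, Snhg1, Snhg6 and Snhg8), against 21.3% of all genes tested. The median over the 7 was -0.31, and the median over all genes tested was -0.01. Scaling to the spike-ins shifted all genes, to a median of -0.52 with 76.4% below 0, and put the 7 members at a median of -0.83 and ribosomal proteins at -0.79.

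Ribosomal protein genes, which code for the protein part of the cytosolic ribosome, gave the yardstick. Of 79 in the files 77 were tested, and all 77 had a fitted value below 0, with a median of -0.27. The genotypes did not overlap for 73 of them, with Mat KO lower. Over all genes tested, 50.6% were below 0 and 21.3% did not overlap in that direction. None passed after adjustment by edgeR, and 9 had an unadjusted p under 0.05 with Mat KO lower, against 3.32% of all genes tested. The 4 with the smallest p were Rps26 (log2 fold change -0.51, SE 0.18), Rpl39 (-0.45, SE 0.16), Rps27a (-0.40, SE 0.15) and Rps23 (-0.42, SE 0.16), with adjusted p from 0.563 to 0.584. The value nearest 0 was that of Rpl17, at -0.04 (SE 0.18). Rps27 was lowest at -2.45 (SE 1.48), but from only 2 and 4 UMIs in Mat KO libraries and 20 and 41 in WT libraries. Ribosomal protein genes have many near-identical processed copies, and no source used here says how shared reads were counted.

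**Figure D2:**
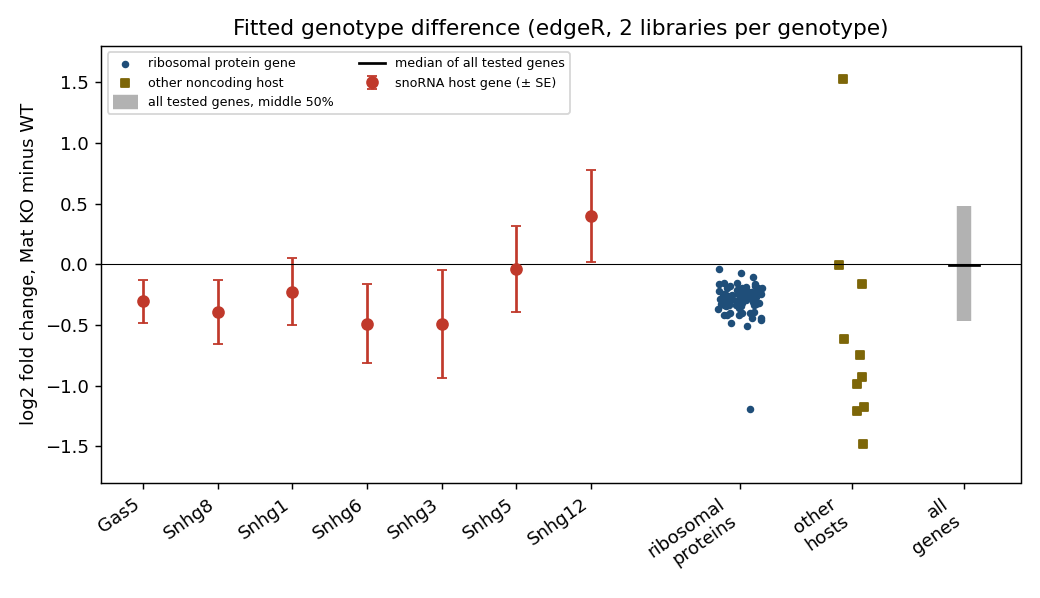
Fitted log2 fold change, Mat KO minus WT, of the 7 host genes (red points, bars ± SE), the ribosomal protein genes (blue points), other noncoding hosts (brown squares) and all tested genes (grey bar, middle 50%, black line at the median of -0.01). Of the 7 hosts 6 and every ribosomal protein gene lie below 0; 1 ribosomal protein gene (Rps27, -2.45) and 1 other host (Snhg10, -2.47) lie below the axis.

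Counted per ribosomal protein UMI over all kept cells, the hosts did not separate the genotypes. Summed over the 7 genes, hosts had 2422 and 2396 CPM in Mat KO libraries and 3054 and 2956 CPM in WT libraries. Ribosomal proteins took 15.7% and 18.2% of the UMIs in Mat KO libraries and 21.1% and 20.9% in WT libraries. Set against each other, there were 15.4 and 13.1 host UMIs per 1000 ribosomal protein UMIs in Mat KO libraries and 14.4 and 14.2 in WT libraries. Both WT values thus lay between the Mat KO values. For Gas5 alone the ratio was 9.11 and 8.94 per 1000 in Mat KO libraries and 9.53 and 8.92 in WT libraries, which also overlap.

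Over all kept cells the other 6 genes did not separate the genotypes in that ratio either. Snhg8 had 1.89 and 1.31 UMIs per 1000 ribosomal protein UMIs in Mat KO libraries against 1.85 and 1.58 in WT libraries. Snhg1 had 1.30 and 0.892 against 1.06 and 1.03, and Snhg6 had 0.698 and 0.651 against 0.631 and 0.934. Snhg3 had 0.792 and 0.245 against 0.596 and 0.560. Snhg5 had 0.618 and 0.576 against 0.417 and 0.597, and Snhg12 had 0.966 and 0.514 against 0.354 and 0.551. The genotypes overlapped in every one of these 6 over all kept cells, but not for Snhg3, Snhg5 and Snhg6 in lineage-low cells (below).

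Cells of other lineages took the largest share of UMIs in Mat KO replicate 1, the library with the lowest Gas5 and ribosomal protein values. Among lineage-low cells, ribosomal proteins took 19.1% and 19.2% of UMIs in Mat KO libraries against 21.8% and 21.6% in WT libraries, a smaller gap than over all kept cells. Their median log2 fold change was -0.13 there, with 69 of 76 below 0. Gas5 had 1895 and 1790 CPM in lineage-low Mat KO cells and 2231 and 1962 CPM in lineage-low WT cells, with a log2 fold change of -0.13. Snhg8 had -0.31, Snhg1 -0.16, Snhg6 -0.84, Snhg3 -1.03, Snhg5 0.38 and Snhg12 0.49. None of the 7 passed there by edgeR, and only Snhg6 (adjusted p = 0.614) was under 0.05 before adjustment. Summed over the 7 hosts, the ratio to ribosomal proteins was 15.3 and 12.9 per 1000 in Mat KO libraries. It was 14.9 and 14.0 in WT libraries, again overlapping. Taken singly there, Snhg3 and Snhg6 were lower per ribosomal protein UMI in both Mat KO libraries, and Snhg5 was higher. Gas5, Snhg1, Snhg8 and Snhg12 overlapped. Snhg3 had 60 and 25 UMIs against 219 and 233, and Snhg6 had 75 and 130 against 363 and 522. Snhg5 had 109 and 136 against 183 and 278. Ribosomal proteins had 181642 and 242336 UMIs against 576562 and 555014. These ratios were not tested, and the share of all genes that separate in them was not counted. In CPM over all kept cells, 2271 of 10663 genes tested were lower in Mat KO without overlap and 1895 were higher.

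Single libraries carried some values. Without Mat KO replicate 2, Snhg3 had a log2 fold change of 0.05, and without Mat KO replicate 1 it had -1.40, against -0.49 with both. In Mat KO replicate 2, 1 cell gave 43.0% of the 79 Snhg3 UMIs, and 12 of 48 cells had any. The median of the 7 members was -0.39 without Mat KO replicate 1 and -0.12 without Mat KO replicate 2, and that of ribosomal proteins -0.18 and -0.41 in the same order. Without Mat KO replicate 1, 74 of 77 ribosomal proteins were below 0, and 57 were below the median of all genes, which was then -0.11.

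Snhg3 shares 5592 bases with Rcc1 on the same strand, and reads of the overlap cannot be assigned to 1 of them from these tables. Rcc1, the exchange factor for the GTPase Ran, had 61 and 44 UMIs in Mat KO libraries and 82 and 162 in WT libraries. Gas5 overlaps the antisense gene Zbtb37 by 428 bases and Snhg6 overlaps the antisense gene Mcmdc2 by 127 bases. These neighbours had at most 13 and 8 UMIs in a library, against at least 209 for Snhg6 and 2726 for Gas5.

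Detection per cell was highest for the most abundant hosts. Gas5 had a UMI in 43 of 44 cells of Mat KO replicate 1 and in every cell of the other 3 libraries. Snhg8 was seen in 81.8% and 81.3% of Mat KO cells and in 93.8% and 95.8% of WT cells. Snhg1 was seen in 65.9% and 66.7% against 75% and 79.2%, and Snhg6 in 54.5% and 75% against 77.1% and 81.3%. Snhg3 was seen in 47.7% and 25.0% of Mat KO cells and in 70.8% and 68.8% of WT cells. Snhg5 was seen in 54.5% and 54.2% against 54.2% and 68.8%, and Snhg12 in 68.2% and 43.8% against 60.4% and 70.8%, both with overlap. Detection was lower in both Mat KO libraries for 4 of the 7 genes (Snhg8, Snhg1, Snhg6 and Snhg3), against 42.4% of all genes tested. With only 7 genes, that count cannot be set apart from the share over all genes.

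Cells of the Mat KO libraries were shallower, with medians of 33612.5 and 27845 UMIs against 53092.5 and 51437 in WT libraries. Each cell was therefore thinned to 8800 UMIs, which left out 5, 7, 2 and 4 cells. After thinning, Snhg3 was seen in 38.5% and 12.2% of Mat KO cells and in 28.3% and 47.7% of WT cells, so the genotypes overlapped at that depth. Snhg8 gave 76.9% and 73.2% against 87.0% and 72.7%, which overlap as well. Snhg1 did not overlap, at 43.6% and 48.8% against 58.7% and 56.8%, nor did Snhg6, at 46.2% and 41.5% against 52.2% and 59.1%. Snhg5 (35.9% and 36.6% against 32.6% and 38.6%) and Snhg12 (61.5% and 36.6% against 41.3% and 43.2%) overlapped, with a higher mean in Mat KO. The genotypes thus separated for 2 of the 7 genes, against 21.3% of all genes tested, and so few genes cannot be set apart from that share.

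Thinning to 17600 UMIs gave other genes. It was a separate random draw, made once as at 8800 UMIs, and kept 32 and 34 Mat KO cells and 40 and 38 WT cells. Depth, draw and cells thus changed together. With cells thinned to 17600 UMIs, Snhg3 (37.5% and 23.5% against 55% and 50%) and Snhg8 (81.3% and 85.3% against 97.5% and 94.7%) were again lower in both Mat KO libraries. So were Snhg5 (43.8% and 41.2% against 47.5% and 68.4%) and Snhg6 (43.8% and 52.9% against 55.0% and 73.7%), while Snhg1 overlapped (68.8% and 47.1% against 67.5% and 73.7%). That made 4 of 7, against 23.7% of all genes tested, and Snhg6 alone did not overlap at either depth. At 8800 UMIs the exact 95% binomial interval for Snhg1 ran from 27.8% to 60.4% in Mat KO replicate 1 and from 41.0% to 71.7% in WT replicate 2. A cell held UMIs of a median of 5 and 5 of the 7 genes in Mat KO libraries and 6 and 6 in WT libraries, and of 4 in each library after thinning to 8800 UMIs.

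**Figure D3:**
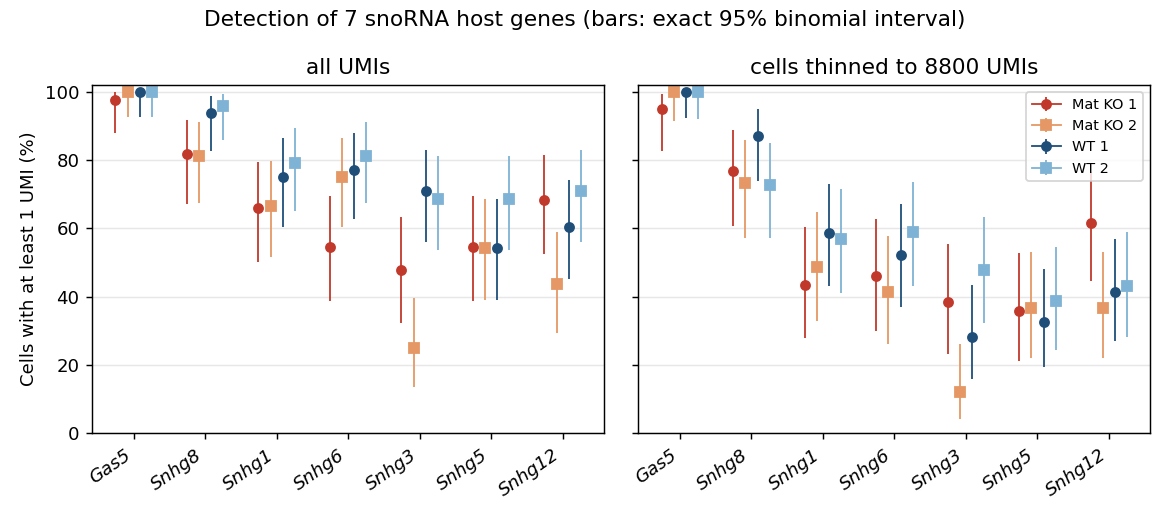
Share of kept cells with at least 1 UMI of each host gene, with all UMIs (left) and with each cell thinned to 8800 UMIs (right); points are libraries and bars are exact 95% binomial intervals, which cover counting error only. The gap between genotypes for Snhg3 and Snhg8 with all UMIs (47.7% and 25.0% against 70.8% and 68.8% for Snhg3) is an overlap at 8800 UMIs.

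Barcodes without a cell held few host UMIs. The 48 of each library held 2 and 7 UMIs of the 7 genes for Mat KO and 1 and 1 for WT, against 4603, 4237, 9721 and 9619 in kept cells. These genes are transcribed in most cell types, so barcodes without a cell served as the background.

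Snhg3 UMIs were spread more unevenly over cells than those of Gas5. A cell in which Gas5 was seen had a median of 39, 51, 84.5 and 94 Gas5 UMIs in the 4 libraries in that order, while one in which Snhg3 was seen had 2, 3, 2.5 and 4. The leading cell gave 7.50% to 13.9% of a library's Gas5 UMIs and 17.9% to 43.0% of its Snhg3 UMIs, while Snhg8 stood at 11.3% to 13.1%. Large shares were not particular to Snhg3. Snhg1 stood at 10.3% to 30.8%, Snhg5 at 16.7% to 21.0%, Snhg6 at 12.2% to 30.6% and Snhg12 at 13.1% to 25.9%. Spike-in species too rare to be present in most wells averaged 5.18 to 7.37 UMIs where they were seen at all, so UMIs over-count molecules.

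Between single cells, the genes most like Gas5 were mostly ribosomal protein genes. Across 170 thinned cells, within each library, the 2 genes of 4197 with the highest mean Spearman correlation with Gas5 were Rps18 (0.41 over the 4 libraries, from 0.19 to 0.56) and Rpl36 (0.38), both ribosomal protein genes. Ribosomal protein genes made up 14 of its 20 nearest genes and 75 of the 4197 candidates. Its median correlation with them was 0.24, against 0.01 with all candidates. The cells of a library share its preparation, and these genes are all abundant, so the values are a description.

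For the Snhg genes seen in at least 50% of thinned cells the nearest genes were others. They were Tmem40 (0.29) and Trim28 (0.29), a co-repressor of transposable elements, for Snhg8, Stoml2 (0.33) and Hnrnpu (0.30), an RNA-binding protein of the nuclear matrix, for Snhg1, and Man2a2 (0.31) and Cwc15 (0.30), a spliceosome component, for Snhg6. Ribosomal protein genes made up 4, 0 and 1 of the 20 nearest genes of Snhg8, Snhg1 and Snhg6. Their median correlation with ribosomal protein genes was 0.14, 0.04 and 0.05, against 0.02 with all candidates for each. In sparse counts such weak correlations are not findings. Among the 21 pairs of members the highest mean correlation was that of Snhg1 and Snhg5, at 0.30 (from 0.16 to 0.46 over the 4 libraries).

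The correlation of Gas5 with ribosomal proteins was smaller among lineage-low cells in all 4 libraries. With the summed ribosomal protein UMIs of a thinned cell, Gas5 had Spearman correlations of 0.57 and 0.40 in Mat KO (39 and 41 cells) and 0.35 and 0.30 in WT libraries (46 and 44 cells). In lineage-low cells they were 0.16 and 0.36 in Mat KO (24 and 35 cells) and 0.17 and 0.18 in WT libraries (39 and 36 cells). At 8800 UMIs a lineage-low cell held a median of 16 and 15 Gas5 UMIs in Mat KO libraries and 17 and 18.5 in WT libraries, and a median of 1708 and 1669 ribosomal protein UMIs against 1888 and 1859.

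**Figure D4:**
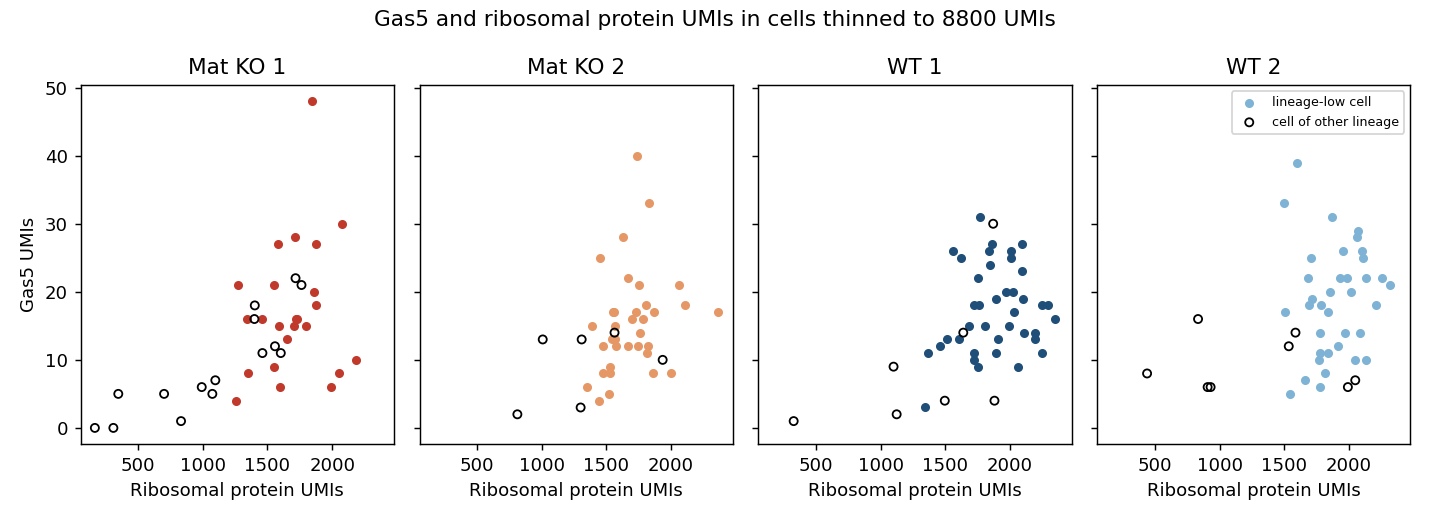
Gas5 UMIs against summed ribosomal protein UMIs in each cell thinned to 8800 UMIs, 1 panel per library; filled points are lineage-low cells and open circles are cells with markers of other lineages. The cells with the fewest ribosomal protein UMIs (down to 166 in Mat KO replicate 1) are open circles, and lineage-low cells hold at least 1256 ribosomal protein UMIs.

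Host levels differed by lineage within libraries. Cells with granulocyte and monocyte markers (10, 3, 2 and 3 cells) had 506, 1421, 293 and 1165 CPM of Gas5, below the lineage-low cells of the same library (1895, 1790, 2231 and 1962) in all 4 libraries. Snhg5 was also lower there, at 8.23, 21.1, 31.4 and 61.0 CPM against 115, 108, 69.2 and 108 CPM. Those lower values rest on only 4, 4, 3 and 10 UMIs, in 3, 1, 1 and 2 cells, close to the floor of 3 counts. Cells with B lymphoid markers (7, 4, 5 and 3 cells) had 184, 107, 410 and 130 CPM of Snhg3, above the 63.1, 19.8, 82.8 and 90.7 CPM of lineage-low cells in all 4 libraries. In Mat KO replicate 2 that value rests on 1 cell with 34 UMIs. Snhg1 was higher in them too, at 396, 239, 295 and 400 CPM against 191, 152, 221 and 175 CPM. Gas5 was lower in them in all 4 libraries, at 1539, 1131, 1100 and 1665 CPM. These classes hold few cells, and no test was made.

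Other noncoding hosts had fitted values from -2.47 to 1.53. Of 15 in the files 11 were tested, and 0 passed. A fitted value below 0 was found for 10, against 50.6% of all genes tested. The genotypes did not overlap for 6, with Mat KO lower, against 21.3% of all genes tested. The median log2 fold change was -0.93, which is the value of Meg3, a gene of the Dlk1-Gtl2 locus itself. Meg3 is among the 10 and among the 6, and these counts were not repeated without it. Snhg9 had the smallest p, at 44.2 and 55.4 CPM in Mat KO libraries and 128 and 74.7 CPM in WT libraries (edgeR log2 fold change -0.99, SE 0.42, and adjusted p = 0.610). Meg3, a noncoding gene of the Dlk1-Gtl2 locus, had 18.4 and 32.8 CPM against 52.8 and 47.0 CPM (-0.93, SE 0.55), and whether its 3′ end lies in the deleted part is not stated. Rian, which carries box C/D snoRNAs of that locus, was seen in 1 cell (25 UMIs, Mat KO replicate 2) and Mirg in 3 cells (47 UMIs, WT replicate 1), with 0 in the other libraries. The row 1500012F01Rik, an older symbol of the host Zfas1, was abundant and even, with 410 and 382 CPM against 408 and 404 CPM (0.00, SE 0.24). The row 1110038B12Rik had -0.17 (SE 0.36), Snhg4 -0.61 (SE 0.57), Snhg7 -0.75 (SE 0.71), Snhg17 -1.18 (SE 0.67) and Dancr -1.21 (SE 1.09). Snhg20 had -1.48 (SE 1.15), Snhg10 -2.47 (SE 1.40) and Snhg18 1.53 (SE 1.62), the last 2 from at most 49 UMIs in a library.

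Protein-coding hosts outside the ribosomal proteins had 20 of 24 fitted values below 0, a median of -0.31, and 15 lower in Mat KO without overlap. Over all genes tested, 50.6% were below 0 and 21.3% were lower in Mat KO without overlap. Atp5b, the beta subunit of mitochondrial ATP synthase, had a log2 fold change of -0.59 (SE 0.22). The elongation factor gene Eef1b2 had -0.51 (SE 0.20), Dkc1, which codes for dyskerin, -0.89 (SE 0.39), and Cnot1, the scaffold of the CCR4-NOT deadenylase, -0.83 (SE 0.37). Other TOP mRNAs had 14 of 18 below 0 and a median of -0.21. Nap1l1 (-0.58, SE 0.22) and Hnrnpa1 (-0.80, SE 0.38) were below 0, while the intermediate filament gene Vim had 1.31 (SE 0.30, adjusted p = 0.221 by edgeR). No gene of either list passed. The lists share genes, among them Eef1b2, Eef2 and Tpt1, and Dkc1 and Nop56 are also in the snoRNA-binding list that follows.

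The proteins that bind snoRNAs and build the particles (snoRNPs) had 17 of 19 fitted values below 0, with a median of -0.27. The share below 0 over all genes tested was 50.6%. Ruvbl1, an ATPase of the assembly machinery, had 66.8 and 72.9 CPM in Mat KO libraries against 180 and 132 CPM in WT libraries (-1.13, SE 0.34, adjusted p = 0.450 by edgeR). The box H/ACA core proteins Nhp2 (-0.91, SE 0.32) and Nop10 (-0.68, SE 0.25) were also below 0. Nonsense-mediated decay and exon junction factors, by contrast, had 7 of 16 below 0 and a median of 0.08. Smg1, the kinase of the decay factor Upf1, had 148 and 132 CPM in Mat KO libraries against 83.3 and 93.7 CPM in WT libraries (0.69, SE 0.33), Upf3b 0.43 (SE 0.38), Smg9 0.72 (SE 0.64) and Rnps1 0.32 (SE 0.33). No gene of either list passed, and the difference between the lists was not tested.

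No gene of the S phase, G2/M and immediate early lists passed the test. Over all genes tested, 50.6% had a fitted value below 0. S phase genes had 27 of 30 fitted values below 0 (median -0.70), led by the replication helicase gene Mcm2 (-1.88, SE 0.49), with Cdca7 (-1.05, SE 0.35), Mcm4 (-1.13, SE 0.38) and Hells (-0.93, SE 0.37). G2/M genes had 33 of 49 above 0 (median 0.21), led by Cenpf (1.01, SE 0.32), with Kif20b (-1.05, SE 0.44), Gas2l3 (1.24, SE 0.53) and Hmgb2 (0.40, SE 0.19). Immediate early genes, which respond to handling, had 10 of 13 below 0 (median -0.28), led by Fos (-0.68, SE 0.24), with Jund (0.47, SE 0.23), Dusp1 (-0.70, SE 0.39) and Atf3 (0.73, SE 0.41). Their part in the host values was not tested. Without the 19 cells with the largest share of cycle genes, the median was -0.27 for the 7 hosts and -0.19 for ribosomal proteins.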

How the data were processed

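The deposited tables hold raw counts of UMIs for each gene in each cell barcode (modified STRT-seq, per the labels' protocols), with 24411 gene rows, 95 spike-in or marker rows left out of totals, and 96 barcodes per library. TopHat2 2.0.12, HTSeq and the mm10 build are named in the submitters' processing notes, and the labels give no strand setting. Cells with at least 1000 detected genes were kept (188). No doublet caller was run, since cells were picked singly per the labels' protocols.

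Counts were summed per library and tested with edgeR 4.0.16 (R 4.3.3; TMM, filterByExpr, genotype as the term, Benjamini-Hochberg at 0.05), with DESeq2 1.42.0 as an alternative. The edgeR test was tried on simulated counts with the same dispersion for every gene. That does not show how it behaves on libraries of mixed cells such as these. Thinning to 8800 UMIs kept 170 cells and left out 18. Intervals (95%) and floors (3 counts) cover counting error only.

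A cell was set aside as of another lineage where granulocyte and monocyte or erythroid markers passed 1% of its UMIs, or B lymphoid or T and NK markers 0.2%. These limits were set after the values had been seen. Between the halved and the doubled limits lay 22, 2, 7 and 2 cells in that order of granulocyte and monocyte, erythroid, B lymphoid, and T and NK.

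The genes named are the 7 members, each tested gene of the other noncoding hosts, up to 4 of smallest p in each further list (with the extremes of the ribosomal proteins), the 2 genes nearest to each member seen in at least 50% of thinned cells, and snoRNAs inside members. The members and lists were chosen with earlier results of these data known. Of the marker lists, fitted values were above 0 for 14 of 16 tested granulocyte and monocyte, 10 of 13 B lymphoid and 2 of 2 T and NK genes, and below 0 for 13 of 15 long-term HSC, 6 of 6 erythroid and 5 of 6 megakaryocyte genes. Over all genes tested, 50.6% were below 0. Coordinates and sequences come from GENCODE M21 and RefSeq, both of GRCm38, the build of mm10.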

Additional observations from a re-analysis of the deposited data

Results flagged for a closer look

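Host gene UMIs were found in barcodes that hold no cell and enter no comparison. Mat KO replicate 2 had 7 of them over 48 such barcodes, above the 3 counts that a count of 0 allows, against 2 in Mat KO replicate 1 and 1 in each WT library. The kept cells of Mat KO replicate 2 held 4237.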

How the results depend on the processing

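Under 19 alternatives Gas5, Snhg1, Snhg6 and Snhg8 stayed below 0 in each, from -0.83 to -0.11 for Gas5 and from -0.90 to -0.23 for Snhg8, and in the 18 of them that give a test 0 of 7 hosts passed. Spike-in scaling moved the median of all genes to -0.52 and that of ribosomal proteins to -0.79, and there Snhg12 was -0.12 and 4 hosts had an unadjusted p under 0.05 (adjusted p of Gas5 0.0736). Snhg5 turned above 0 in lineage-low cells (0.38; 0.36 with limits halved and 0.38 with limits doubled, both added after the values were seen), without the cells of largest cycle share (0.09), after thinning (0.07), without each gene's leading cell (0.09) and with equally weighted cells (0.08). With 1 library left out it ran from -0.28 to 0.23, and Snhg3 from -1.40 to 0.05. The median of hosts minus that of ribosomal proteins was -0.03, -0.26 after thinning, and from -0.21 to 0.29 with 1 library left out. Over all genes 8 were called, against 14 with spike-in scaling, 120 by DESeq2, 149 with no filter, 4 in lineage-low cells (1 with limits halved, 1 with limits doubled), 5 in cells with at least 2000 genes, 3 after thinning, and 17 to 123 with 1 library left out, where the lone library is assumed to vary like the others. Without each gene's leading cell edgeR called 0, with 740 of 9181 genes at an unadjusted p under 0.05. With the replicate block 109 genes were called. Same-numbered libraries did not deviate together (Pearson r -0.009 over 8235 genes). That correlation cannot show whether the numbers pair libraries prepared together, and the main test took them as unpaired. Depth of 1768647 to 3253608 UMIs limits Snhg3, Snhg5, Snhg6 and Snhg12 most.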
